A study of Drosophila melanogaster with 4 samples.

Results

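The aminoacyl-tRNA synthetases of *Drosophila melanogaster* are described here across ovaries of a pair of germline knockdowns. The genes were chosen by symbol alone, as 1 or 2 amino acid names followed by RS, with -m for a mitochondrial form. The annotation held 33 such symbols, and 31 of them were found by gene identifier among the 17023 genes listed in each count table. They comprised 17 cytosolic forms (no -m) and 14 mitochondrial forms (-m), a division by symbol and not by where the enzyme was shown to work. *LeuRS* and *PheRS-m* were not analysed here. The 31 genes lie scattered over the genome, with 10 on chromosome arm 3L, 7 on 2R, 6 on 3R, 5 on 2L and 3 on X. Poly(A) RNA came from ovaries of flies aged 2 to 3 days after eclosion, with 2 libraries for UAS-Dcr2;nosGAL4>*bam* RNAi and 2 for UAS-Dcr2;nosGAL4>*Nipped_A* RNAi. Both genotypes carry nosGAL4, a germ cell driver, and UAS-Dcr2, which strengthens RNA interference, so the hairpins act in the germline while the RNA also includes somatic cells. *bam* is the factor that stem cell daughters need to start differentiation, and *Nipped-A* encodes a large scaffold subunit of both the Tip60 and the SAGA acetyltransferase complex. There was no untreated group, so each value is read against the other knockdown. Nothing in the labels tells whether replicate libraries are separate dissections, so p-values cover the spread among these 4 samples, which may be technical.

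Aminoacyl-tRNA synthetases attach each amino acid to its tRNAs and so supply the ribosome with charged tRNA. They fall into class I and class II by the fold of the catalytic domain. Cytosolic and mitochondrial enzymes are both encoded in the nucleus, mostly by separate genes, and *GluProRS* joins the glutamyl and prolyl enzymes in 1 protein. In the animal mitochondrion, glutaminyl-tRNA is made from glutamyl-tRNA by the GatCAB amidotransferase rather than by a separate synthetase. Growing egg chambers make large amounts of protein and stock the egg with ribosomes and mitochondria, so both translation systems are active in the ovary.

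None of the 31 synthetase genes passed the test between the knockdowns, although most lay slightly lower under the *Nipped-A* RNAi label. The edgeR quasi-likelihood test called 0 of 31 at an adjusted p of 0.05, where it called 19.6% of all tested genes; 6 had an unadjusted p below 0.05 (38.3% of all tested genes), DESeq2 called 2 (33.7%) and limma-voom 0 (16.7%). Of the 17 cytosolic genes 16 had a log2 fold change below 0, with a median of -0.25, and of the 14 mitochondrial genes 9 did, with a median of -0.21. These counts depend on the setting and on 1 library: 13 of 17 cytosolic genes lay below 0 with library size alone, and without *Nipped-A* RNAi library 2 it was 11 of 17 and 8 of 14, with medians of -0.10 and -0.08. Over all 10245 genes tested the median was -0.0011 and 50.1% lay below 0. The most negative values were those of *SerRS* and *ThrRS*, near 1.5-fold, and the most positive that of *ValRS-m*, at 1.36-fold. All 31 lay within 2-fold, against 25.7% of all tested genes beyond it.

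The depth was 33844807 and 23866988 counts in the *bam* RNAi libraries 1 and 2 and 47825006 and 21193517 in the *Nipped-A* RNAi libraries 1 and 2, and each synthetase gene had 142 to 14677 counts per library. The levels of the targeted genes cannot show how far each knockdown worked. There was no untreated group, and the RNA includes somatic cells. *bam* was higher under the *Nipped-A* RNAi label (log2 fold change 2.03 ± 0.38 SE; edgeR adjusted p = 0.0254), which places it lower under its own label. *Nipped-A* was also higher, not lower, in the libraries that carry its label (0.70 ± 0.14; edgeR adjusted p = 0.0287), so every direction below refers to the labels. That second call ended under upper-quartile scaling and with the length trend removed, and both ended without either *bam* RNAi library. Of the ovarian markers, the 6 germ cell genes found summed to 740 and 694 CPM (counts scaled to library size with TMM factors) in the *bam* RNAi libraries and to 2059 and 1251 CPM in the others. That sum hides opposite directions, since edgeR called *osk*, *otu* and *nanos* higher and *bgcn* lower (113 and 106 against 14.2 and 20.7 CPM; edgeR adjusted p = 0.00925), and *aub*, not called, had 195 and 188 against 138 and 108 CPM. The 9 follicle cell genes summed to 7420 and 8134 against 19908 and 16341 CPM, and the 7 muscle sheath genes to 24994 and 25058 against 6571 and 7825 CPM. The 8 gut genes summed to 3.89 and 4.22 against 873 and 2716 CPM, with *LysE* at 0 counts in both *bam* RNAi libraries. The 5 hemocyte genes summed to 8265 and 7281 against 3134 and 3246.5 CPM, with *Col4a1* the largest (3044 and 2622 against 820 and 889 CPM). Of these 5 edgeR called 4 lower. *Hml*, not called, had 663 and 556 against 383 and 455 CPM (edgeR adjusted p = 0.0718). The 8 fat body genes summed to 1186.5 and 1133 against 1978 and 1610 CPM. The fat body sum also hides opposite directions. There edgeR called *apolpp* and *Lsd-1* higher and *Fbp1*, *Fbp2*, *Lsp1alpha* and *Lsp1gamma* lower. These marker levels moved with the groups, their part in the synthetase values was not tested, and in bulk RNA fewer cells of a type and less RNA per cell cannot be told apart.

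Levels are compared between genes per length, as RPKM (CPM per kilobase of annotated exon). The cytosolic forms ranged over all 4 libraries from a mean of 10.8 RPKM for *AspRS* to 89.3 RPKM for *ThrRS*, and the mitochondrial forms from 4.30 RPKM for *MetRS-m* to 33.9 RPKM for *AspRS-m*. *ThrRS*, the threonyl enzyme, had 113 and 103 RPKM in the *bam* RNAi libraries and 79.4 and 62.0 RPKM in the *Nipped-A* RNAi libraries. *LysRS*, the lysyl enzyme, followed with 97.9 and 90.3 against 78.7 and 57.1 RPKM. *IleRS*, the isoleucyl enzyme, was nearly level, at 75.7 and 73.0 against 73.9 and 68.9 RPKM. In the *bam* RNAi libraries *ThrRS* lay above *LysRS* and *LysRS* above all others, while in the *Nipped-A* RNAi libraries the ranges of *ThrRS*, *LysRS*, *IleRS* and *AlaRS* overlapped. At the low end stood *AspRS* and *MetRS*, and *MetRS* had 32.3 and 32.6 against 38.1 and 24.8 RPKM. *AspRS* was set apart from all other cytosolic forms, with 9.30 and 13.9 against 9.998 and 10.05 RPKM. Its exons share 1575 of their 2266 bases with genes on the opposite strand and 154 with genes on its own, and the strand setting of the counting is not given in the sources used here, so its level is uncertain.

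**Figure D1:**
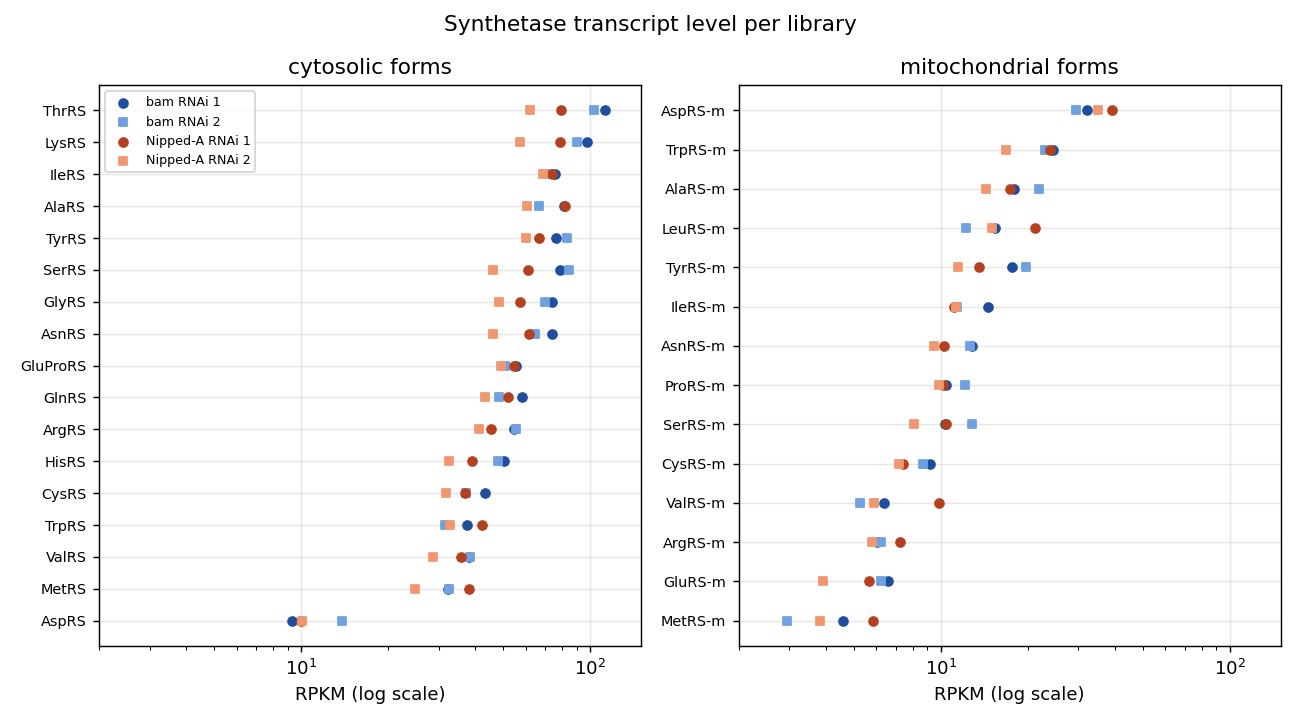
Level of each synthetase transcript in RPKM (log axis) in each of the 4 libraries, cytosolic forms on the left and mitochondrial forms on the right, ordered by the mean over libraries. The cytosolic forms other than *AspRS* sit at 24.8 RPKM or above in every library, and the mitochondrial forms other than *AspRS-m* at 24.4 RPKM or below.

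Among the mitochondrial forms *AspRS-m*, the aspartyl enzyme, was the most abundant, with 32.2 and 29.3 RPKM in the *bam* RNAi libraries and 39.1 and 35.0 RPKM in the *Nipped-A* RNAi libraries. *TrpRS-m* came next at 24.4 and 22.9 against 23.8 and 16.9 RPKM, and *AlaRS-m* at 17.9 and 21.9 against 17.4 and 14.4 RPKM. The *AspRS-m* libraries all lay above every *TrpRS-m* library. The least abundant were *MetRS-m*, with 4.61 and 2.94 against 5.81 and 3.82 RPKM, and *GluRS-m*, with 6.56 and 6.24 against 5.65 and 3.91 RPKM. This order depends on the annotated exon length, 4314 bases for *MetRS-m* and 1700 for *GluRS-m*. In CPM *MetRS-m* lay above *GluRS-m* in every library, at 12.7 or more against 11.2 or less. *GluRS-m* charges the tRNA that GatCAB then converts, and its libraries overlapped those of *ArgRS-m* and *ValRS-m*.

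Summed over the class, the 17 cytosolic genes gave 1050 and 992 RPKM in the *bam* RNAi libraries and 915 and 744 RPKM in the *Nipped-A* RNAi libraries. The 14 mitochondrial genes summed to 188 and 184 against 193 and 158 RPKM. The cytosolic sum was thus lower in both *Nipped-A* RNAi libraries, while the mitochondrial sums of the groups overlapped. The ratio of the sums was 5.57 and 5.38 in the *bam* RNAi libraries and 4.74 and 4.70 in the others, a separation that no scaling of whole libraries can alter. The ratio of the class medians overlapped between the groups, at 5.02 and 4.54 against 5.29 and 4.76, so the medians did not show the separation that the sums did.

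The first comparison asks whether single cytosolic synthetase genes differ between the knockdowns. edgeR with Benjamini-Hochberg adjustment called 0 of 17 cytosolic genes, where it called 11.3% of all tested genes as higher and 8.31% as lower. At an unadjusted p below 0.05 there were 5 cytosolic genes, all lower under the *Nipped-A* RNAi label, where 38.3% of all tested genes passed that mark. limma-voom called 0, and DESeq2 called *SerRS* and *ThrRS*. *SerRS* (FBgn0031497, dm6 chromosome 2L, 3035493 to 3037403, a single exon block), the seryl enzyme, had 151 and 161 CPM in the *bam* RNAi libraries and 116 and 88.1 CPM in the others. Both *Nipped-A* RNAi libraries lay below both *bam* RNAi libraries, with means of 156 ± 7.31 against 102 ± 20.1 CPM (SD, n = 2). The log2 fold change of *SerRS* was -0.61 ± 0.18 (SE, edgeR; adjusted p = 0.0658), with a 95% interval from -1.06 to -0.17. *ThrRS* (FBgn0027081, chromosome 2L, 12103751 to 12107170) had 326 and 299 against 229.9 and 179.7 CPM, again with no overlap. Its log2 fold change was -0.61 ± 0.17 (edgeR adjusted p = 0.0583), with an interval from -1.03 to -0.19.

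The next 3 by size were *LysRS*, *HisRS* and *GlyRS*, the lysyl, histidyl and glycyl enzymes, all class II. *LysRS* had 222 and 205 CPM in the *bam* RNAi libraries and 178 and 129 CPM in the others. *HisRS* had 144 and 137 against 112 and 92.8 CPM, and 255 bases of its exons are shared with *Bx* on the same strand. *GlyRS* had 188 and 178 against 146 and 123 CPM. In each of these genes the groups were separate, and the log2 fold changes were -0.47 ± 0.19, -0.46 ± 0.15 and -0.44 ± 0.14 (edgeR adjusted p = 0.134, 0.0879 and 0.0869). *GlyRS*, *HisRS*, *LysRS*, *ThrRS* and *GlnRS* have no mitochondrial partner among the genes analysed. In humans the glycyl and lysyl genes each make both the cytosolic and the mitochondrial enzyme. Symbols do not show whether these fly genes also serve the mitochondrion, so the cytosolic class may not be purely cytosolic. These 5 had a median log2 fold change of -0.46, and the 12 cytosolic genes with a partner had -0.22, a difference that was not tested.

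At the other end *TrpRS*, the tryptophanyl enzyme, was the single cytosolic gene above 0, with 63.0 and 53.1 against 71.1 and 55.0 CPM (0.12 ± 0.20; edgeR adjusted p = 0.697). Its libraries overlapped, and its sign turned under upper-quartile scaling. *GluProRS* had 304 and 277 against 299 and 269 CPM and a log2 fold change of -0.03 ± 0.13 (edgeR adjusted p = 0.878). Its interval runs from -0.37 to 0.31, its sign turned under RLE scaling, library size alone and DESeq2, and 905 of its exonic bases are shared with an antisense RNA gene. *IleRS* likewise had an interval from -0.37 to 0.26, around -0.06 (edgeR adjusted p = 0.760). With the length trend removed *GluProRS* was at -0.35 and *IleRS* at -0.26. The other cytosolic genes, *MetRS*, *AlaRS*, *GlnRS*, *AspRS*, *CysRS*, *ValRS*, *TyrRS*, *ArgRS* and *AsnRS*, lay between -0.05 and -0.36. In all, 10 of the 17 had groups that did not overlap, all 10 lower under the *Nipped-A* RNAi label, where 68.9% of all tested genes had groups that did not overlap.

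**Figure D2:**
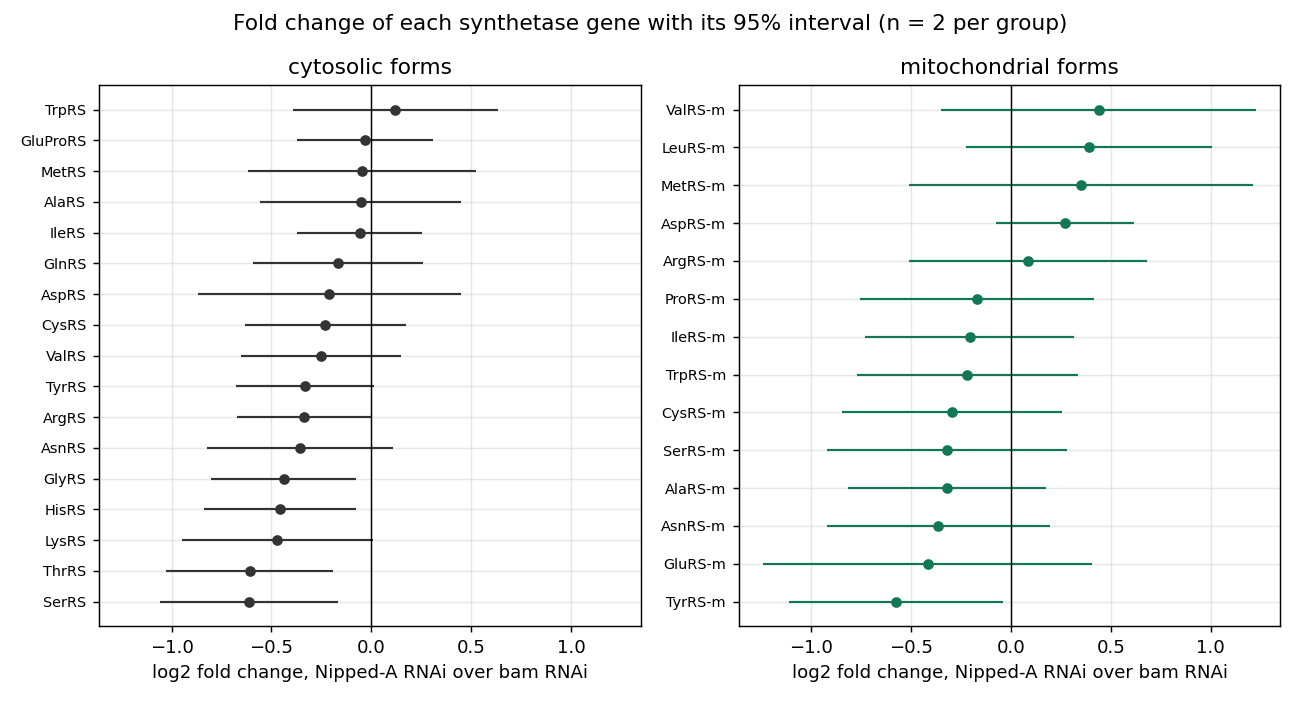
Log2 fold change of each synthetase gene (libraries labelled *Nipped-A* RNAi over *bam* RNAi, n = 2 per group) with its 95% interval from the edgeR fit as a horizontal line. Values run from -0.61 for *SerRS* to 0.44 for *ValRS-m*, and 6 of the 31 intervals lie off 0.

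Grouped by enzyme class, a grouping made after the values were seen, the 8 cytosolic class II genes all lay below 0 with a median of -0.45, and 7 of 8 class I genes did with a median of -0.20. *GluProRS*, which holds an enzyme of each class, stands outside both. In human cells a set of synthetases is held in a multisynthetase complex. The 7 cytosolic genes here that are homologues of its enzymes (*AspRS*, *ArgRS*, *GlnRS*, *GluProRS*, *IleRS*, *LysRS*, *MetRS*) had a median of -0.17 and groups that did not overlap in 2 of 7, where 68.9% of all tested genes had such groups. The 10 others had a median of -0.35 and groups that did not overlap in 8 of 10. These subsets were not tested against each other.

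The second comparison asks the same of the mitochondrial forms, and here the values lay on both sides of 0. edgeR called 0 of 14, with 1 gene at an unadjusted p below 0.05, and DESeq2 and limma-voom also called 0. *TyrRS-m* (FBgn0035064, chromosome 2R, 24781726 to 24783500), the tyrosyl enzyme, was that gene, with 27.2 and 30.4 CPM in the *bam* RNAi libraries and 21.0 and 17.7 CPM in the others. Its groups did not overlap, and its log2 fold change was -0.57 ± 0.21 (edgeR adjusted p = 0.113). *GluRS-m* had 11.2 and 10.6 against 9.61 and 6.65 CPM, also without overlap (-0.42 ± 0.33; edgeR adjusted p = 0.387). It lies 171 bases from *TyrRS* on the same strand (dm6 chromosome 3L, 16415292 to 16417177 and 16417349 to 16419302), and *TyrRS* had a log2 fold change of -0.33 ± 0.14 (edgeR adjusted p = 0.141).

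Above 0 stood *ValRS-m* (FBgn0035942, chromosome 3L, 8961274 to 8964769), the valyl enzyme, with 20.7 and 17.1 CPM in the *bam* RNAi libraries and 32.0 and 19.1 CPM in the others (0.44 ± 0.31; edgeR adjusted p = 0.344). *LeuRS-m*, the leucyl enzyme, had 46.6 and 36.9 against 63.9 and 45.5 CPM (0.39 ± 0.24; edgeR adjusted p = 0.290). *MetRS-m* had 19.9 and 12.7 against 25.1 and 16.5 CPM (0.35 ± 0.34; edgeR adjusted p = 0.487). In all 3 the groups overlapped, since *Nipped-A* RNAi library 2 lay within the range of the *bam* RNAi libraries. *AspRS-m* (FBgn0051739, chromosome 2L, 16827078 to 16832093) was the single member, in either class, that was higher in both *Nipped-A* RNAi libraries than in both others, at 142 and 129.6 against 173 and 155 CPM (0.27 ± 0.14; edgeR adjusted p = 0.208). Across the 10030 tested genes with a length, the log2 fold change rose with exonic length (Spearman correlation 0.24). With the length trend removed *AspRS-m*, of 4422 exonic bases, was at 0.02, *LeuRS-m* at 0.28 and *MetRS-m* at 0.11. The rest (*ArgRS-m*, *ProRS-m*, *IleRS-m*, *TrpRS-m*, *CysRS-m*, *SerRS-m*, *AlaRS-m* and *AsnRS-m*) lay between 0.08 and -0.36. Of the 14 genes 8 had groups that did not overlap, 7 lower and 1 higher, against the same 68.9% of all tested genes. *ValRS-m*, *MetRS-m* and *GluRS-m* are among the less deeply counted genes, and their intervals reach beyond 2-fold. So do those of *LeuRS-m* and *TyrRS-m*. The intervals of *ProRS-m*, *ArgRS-m* and *AsnRS-m*, also among the less deeply counted, stay within it.

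**Figure D3:**
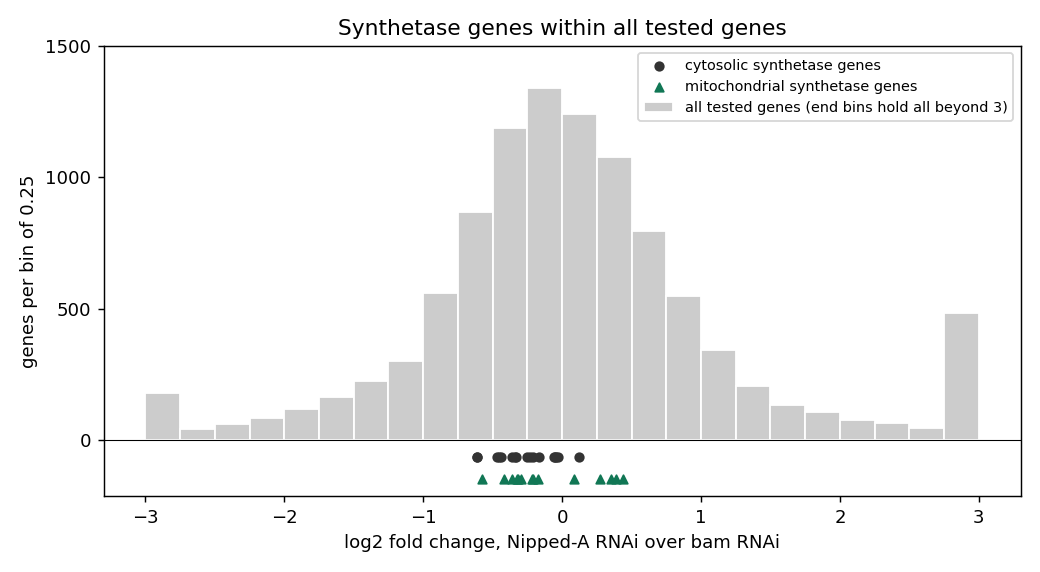
Histogram of the log2 fold change of all 10245 tested genes in bins of 0.25 (grey bars), with the 17 cytosolic (circles) and 14 mitochondrial (triangles) synthetase genes marked under it. All 31 lie between -0.61 and 0.44, inside the central part of the distribution.

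The direct contrast of the classes gave a difference of medians, cytosolic minus mitochondrial, of -0.04 on the log2 scale, smaller than its SD between replicate libraries of 0.064. It went beyond that SD in 3 of the 14 alternatives, at -0.11 with the length trend removed, -0.13 without *bam* RNAi library 2 and -0.15 without *Nipped-A* RNAi library 1. Read against all genes, 29 of the 31 genes lay within 1.5-fold, where 53.6% of all tested genes did, and 63.3% of the 6645 tested genes whose mean CPM lies in the range of the synthetase genes. Of those 6645 genes 21.9% were called. A p that misses the threshold does not show equal levels: 24 of the 31 intervals lie within 2-fold either way, 4 reach further down and 3 further up.

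Setting the forms of 1 amino acid side by side within a library removes any scaling of that library, but not the length trend. For 13 amino acids both forms were measured, and in 12 of them the cytosolic form was the more abundant per length in all 4 libraries. Glutamate and proline share *GluProRS* as their cytosolic form, so these 2 ratios are not independent. Aspartate was the exception, with *AspRS* at 0.289 and 0.475 of *AspRS-m* in the *bam* RNAi libraries and 0.255 and 0.287 in the others. This ratio is uncertain, since 1575 of the 2266 exonic bases of *AspRS* are shared with genes on the opposite strand. Tryptophan was nearest to even, with ratios of 1.53 and 1.37 against 1.77 and 1.94. The ratio was lower in both *Nipped-A* RNAi libraries for 5 amino acids (arginine, aspartate, methionine, serine and valine), higher in both for 3 (glutamate, tryptophan and tyrosine) and overlapped for 5. For aspartate the groups were nearly level at their nearest libraries, 0.287 against 0.289. Of all tested genes, taken singly and not as ratios, 68.9% had groups that did not overlap.

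For valine the ratio of *ValRS* to *ValRS-m* was 5.99 and 7.32 in the *bam* RNAi libraries and 3.63 and 4.87 in the others. For arginine the ratio was 9.04 and 8.87 against 6.31 and 7.17, and for methionine 7.01 and 11.1 against 6.55 and 6.50. For tyrosine it was 4.32 and 4.24 against 4.90 and 5.24, with both forms lower under the *Nipped-A* RNAi label and *TyrRS-m* more so. For glutamate the ratio of *GluProRS* to *GluRS-m* was 8.49 and 8.13 against 9.69 and 12.6, and for proline its ratio to *ProRS-m* overlapped, at 5.35 and 4.18 against 5.39 and 4.998. With 2 libraries against 2 these ratios are given as values without a test. *GluProRS* has 5453 exonic bases and *GluRS-m* 1700. With the length trend removed their log2 fold changes were -0.35 and -0.30, the reverse order. For tryptophan the cytosolic and mitochondrial forms were then at 0.24 and -0.28, and for tyrosine at -0.24 and -0.41, in unchanged order. The pairs thus moved to either side, and the median over the 13 pairs of the difference in log2 fold change, cytosolic minus mitochondrial, was 0.065.

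**Figure D4:**
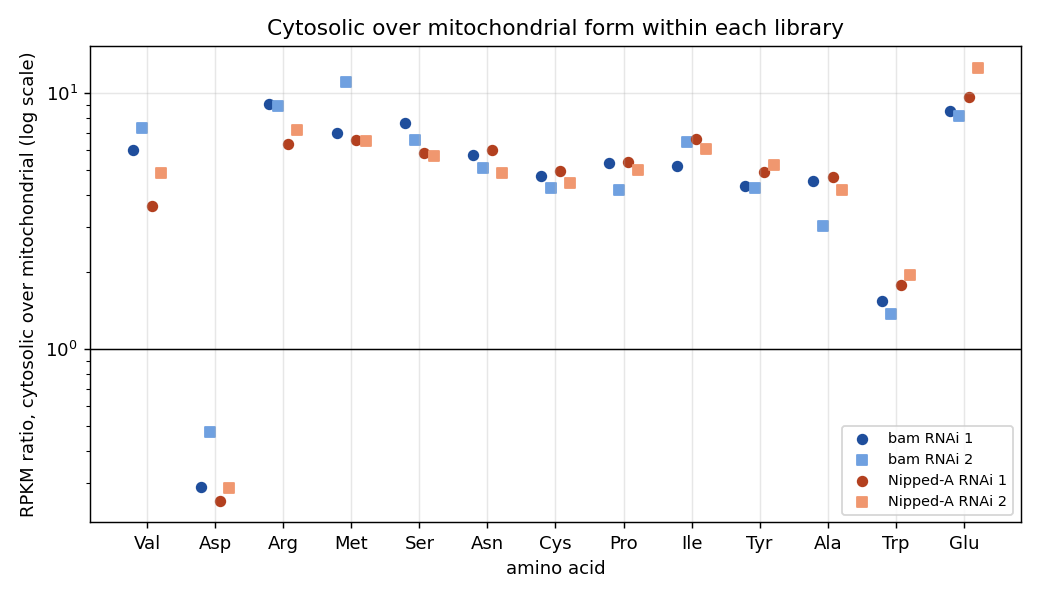
Ratio of cytosolic to mitochondrial RPKM (log axis) for the 13 amino acids with both forms (glutamate and proline share *GluProRS*), in each of the 4 libraries, ordered by the difference in log2 fold change between the forms. The horizontal line marks equal levels, and aspartate alone lies below it. The level of *AspRS* is uncertain, since most of its exonic bases are shared with other genes.

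The *Nipped-A* RNAi libraries differed from each other more than the *bam* RNAi libraries did. Library 2 was lower than library 1 at 29 of 31 synthetase genes, the exceptions being *AspRS* and *IleRS-m*, and the median absolute gap was 0.27 on the log2 scale, against 0.13 between the *bam* RNAi libraries. Over all tested genes the same gaps were 0.34 and 0.18. All 8 gut markers stood higher in the second of these libraries (873 and 2716 CPM summed in libraries 1 and 2). In the same order the germ cell genes summed to 2059 and 1251 CPM and the follicle cell genes to 19908 and 16341 CPM. Among them *Cp36* (1873 and 414 CPM), *Cp38* (2814 and 686 CPM) and *osk* (923 and 455 CPM) stood higher in library 1. *Yp1*, *Yp2* and *bgcn* alone of these germ cell and follicle cell genes stood higher in library 2. The part of the markers in the synthetase values was not tested. Without *Nipped-A* RNAi library 1, edgeR called 12 synthetase genes, all lower (10 cytosolic, with *TrpRS-m* and *TyrRS-m*), in a fit that called 36.2% of all genes. Without library 2 it called 4, *ThrRS* lower and *AspRS-m*, *LeuRS-m* and *ValRS-m* higher, in a fit that called 38.8%. Without either *bam* RNAi library it called 0 synthetase genes and 0 of all genes; 2373 and 1837 genes then had an unadjusted p below 0.05. Each of these fits has a group of 1 library, which is assumed to vary like the other group.

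**Figure D5:**
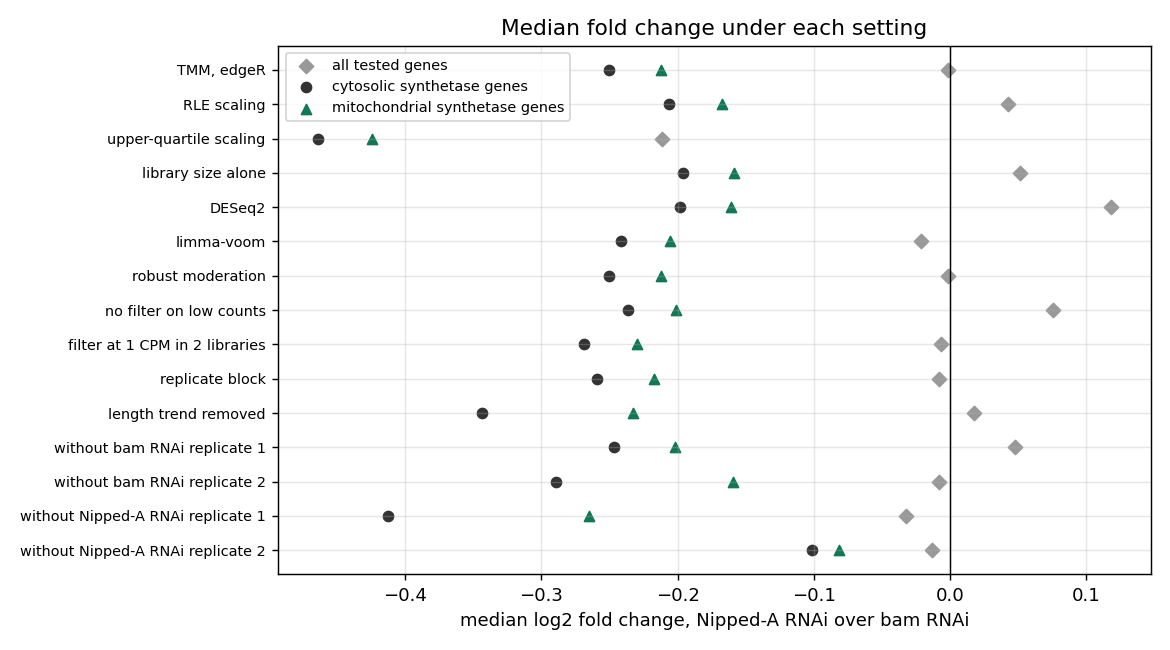
Median log2 fold change of the cytosolic (circles) and mitochondrial (triangles) synthetase genes and of all tested genes (diamonds) under the reported setting (top) and 14 alternatives. The cytosolic median lies below the median of all genes in each, from -0.46 with upper-quartile scaling, where all genes shift to -0.21, to -0.10 without *Nipped-A* RNAi library 2.

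Genes that work beside the synthetases were described from 4 lists. The first held synthetase subunits and scaffold factors outside the symbol rule. *alpha-PheRS* and *beta-PheRS* form the cytosolic phenylalanyl enzyme, and *AIMP1*, *AIMP2* and *AIMP3* are homologues of the human scaffold factors of the multisynthetase complex. All 5 were lower in both *Nipped-A* RNAi libraries, with a median log2 fold change of -0.55, where 68.9% of all tested genes had groups that did not overlap. These genes are short, with a median of 1150 exonic bases against 1998 for all tested genes. With the length trend removed their median was -0.29, and 1 had an unadjusted edgeR p below 0.05. edgeR called 0 of them against 19.6% of all genes, 3 had an unadjusted p below 0.05 against 38.3%, DESeq2 called 2 against 33.7% and limma-voom 0 against 16.7%. *beta-PheRS*, the most abundant, had 124 and 139.9 against 93.9 and 72.0 CPM (-0.67 ± 0.18; edgeR adjusted p = 0.0564). *AIMP3* had 37.8 and 55.0 against 26.5 and 23.2 CPM (-0.90 ± 0.25; edgeR adjusted p = 0.0602). *AIMP3* and *beta-PheRS* were the 2 genes that DESeq2 called.

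The second list held factors of mitochondrial charging and translation. Of 13 tested, edgeR called 0 against 19.6% of all genes, and 3 had an unadjusted p below 0.05 against 38.3%. DESeq2 called 2, *mRF1* higher and *mEFTu1* lower, against 33.7% of all genes, and limma-voom 0 against 16.7%. The median was -0.33, and -0.13 with the length trend removed. *mEFTu1*, the elongation factor that brings charged tRNA to the mitochondrial ribosome, had 211 and 217 CPM in the *bam* RNAi libraries and 159 and 135 CPM in the others (-0.55 ± 0.14; edgeR adjusted p = 0.0518). *GatA* and *GatB* of the amidotransferase had log2 fold changes of -0.58 ± 0.25 and -0.16 ± 0.19 (edgeR adjusted p = 0.156 and 0.558), and *GatC* and *mtTFB1* were listed at 0 counts in every library. *Slimp*, a mitochondrial relative of seryl-tRNA synthetase, had 28.4 and 30.9 against 23.2 and 24.6 CPM (-0.31 ± 0.19; edgeR adjusted p = 0.282).

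The third list held the sensing of uncharged tRNA and the ATF4 arm. In this pathway the kinase Gcn2 responds to uncharged tRNA and raises translation of ATF4 (*crc* in the fly), which in mammals activates many cytosolic synthetase genes. *REPTOR* was listed with these genes though it belongs to TOR signalling, so the counts are those of the list and not of the ATF4 arm alone. Of 12 genes tested 2 rose and 1 fell, or 25% against 19.6% of all genes. At an unadjusted edgeR p below 0.05 there were 7, against 38.3% of all genes. DESeq2 called 5 higher and 1 lower, against 33.7% of all genes, and limma-voom 2 higher and 1 lower, against 16.7%. *REPTOR*, a transcription factor repressed by TOR signalling, rose from 98.2 and 93.5 to 155 and 195 CPM (0.87 ± 0.16; edgeR adjusted p = 0.0254). *trbl*, a tribbles pseudokinase, rose from 49.5 and 52.0 to 86.3 and 77.1 CPM (0.69 ± 0.16; edgeR adjusted p = 0.0388). *Shmt*, serine hydroxymethyltransferase, fell from 219.5 and 237 to 128 and 87.9 CPM (-1.08 ± 0.21; edgeR adjusted p = 0.0275). With the length trend removed the call of *Shmt* remained and those of *REPTOR* and *trbl* ended, and that of *trbl* also ended under upper-quartile scaling.

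The transcript of *crc* itself had 992 and 1030.4 against 792 and 1016 CPM (-0.16 ± 0.16; edgeR adjusted p = 0.503), and its groups overlapped. *Gcn2* had 70.8 and 72.7 against 114.7 and 97.6 CPM, with no overlap (0.56 ± 0.15; edgeR adjusted p = 0.0545). *PEK*, the other kinase of this arm, lay at the threshold with 104 and 87.6 against 201 and 141 CPM (0.84 ± 0.21; edgeR adjusted p = 0.05003). Both *Gcn2* and *PEK* passed it under RLE scaling, library size alone, DESeq2, robust moderation and a 1 CPM filter. Neither passed it under upper-quartile scaling, under limma-voom or with the length trend removed. *PEK* alone passed it with no filter on low counts and in the replicate block. Transcript levels do not measure the activity of these kinases.

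The fourth list held tRNA maturation and modification. Of 16 tested 1 fell, or 6.25% against 8.31% of all genes, with 5 at an unadjusted p below 0.05 against 38.3% of all genes and a median of -0.25. *Elp2*, a subunit of the Elongator complex that modifies the wobble base of tRNAs, fell from 83.4 and 88.5 to 44.2 and 52.6 CPM (-0.83 ± 0.17; edgeR adjusted p = 0.0304), while its partner *Elp3* had -0.22 ± 0.25 (edgeR adjusted p = 0.569). The groups of *Elp2* did not overlap, and those of *Elp3* did. *Rpp20* was listed at 0 counts in every library.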

How the data were processed

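The deposited files hold raw counts for each gene, 1 file a library. HISAT2 2.1.0 (alignment, dm6), featureCounts 1.6.0.4 (counting) and edgeR 3.16.5 are named by the submitters' processing notes. The annotation and strand setting were not given in the sources used here. Libraries were directional, per the labels' protocols. Symbols, positions and exon lengths came from Ensembl gene models on dm6 coordinates, which matched 16647 of 17023 identifiers. Genes were kept with filterByExpr (10245 kept, 6778 not), given TMM factors by edgeR 4.0.16 under R 4.3.3 and compared with its two-sided quasi-likelihood test, Benjamini-Hochberg adjusted over all genes tested at 0.05. The SE is the size of the log2 fold change over the square root of F, and 95% intervals use its total degrees of freedom. The chi-square per gene between replicates was 21.4 and 226, so no library was a copy of another. Alternatives were other scalings and filters, DESeq2 1.42.0, limma-voom (limma 3.58.1), robust moderation, a length trend removed (lowess, span 0.3), a replicate block and leaving out single libraries. Tested on simulated data, the fit recovered the sizes of the changes made, but it called few of the genes changed 2-fold. The share of false calls lay above the adjusted threshold in every draw. Far fewer genes were changed in the simulation than were called in these data, so its rates need not hold here. With 2 libraries per group a missing call is still weak evidence, and some calls among the lists may be false. Genes, lists and tests were chosen with earlier results of these data known. Values are named for all called genes, the 5 largest fold changes, the 3 most and 2 least abundant genes of each class, and up to 4 called genes per list or its most abundant one; list genes named beyond this (*AIMP3*, *alpha-PheRS*, *AIMP1*, *AIMP2*, *GatA*, *GatB*, *Slimp*, *crc*, *Gcn2*, *PEK*, *Elp3*, *mRF1*) were chosen after their values were seen. List symbols without a match were *mEFG2*, *GCN1*, *AsnS*, *CHAC1*, *Rpp30*, *Archease* and *vas*; 1 more list symbol is not reported here.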

Additional observations from a re-analysis of the deposited data

How the results depend on the processing

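Over 14 alternatives the 31 synthetase genes gave 434 single-gene values, of which 384 kept their direction and side of the threshold, 30 passed it and 20 changed sign. The 0 calls became 8 under upper-quartile scaling (7 cytosolic, 1 mitochondrial, all lower), a fit that called 23.5% of all genes and which shifts the median of all genes to -0.21 and leaves the synthetase median 0.23 below it, as in the reported setting. They became 2 cytosolic calls under DESeq2 (33.7% of all genes) and with no filter on low counts (18.4%), *SerRS* and *ThrRS*, and 1 under robust moderation (21.3%) and with a 1 CPM filter (24.3%), *ThrRS*; the cause was not tested. Leaving out 1 library gave 0 to 12 synthetase calls, 0 to 10 cytosolic, 0 to 3 mitochondrial and 0 to 4215 over all genes. The calls over all genes numbered 3611 under DESeq2 (which also tests genes of lower counts) and 1233 with the length trend removed, against 2004. The difference of class medians moved to -0.11 with the length trend removed and ranged from -0.15 to -0.0199 with 1 library left out.

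Sign changes touched 9 genes. With library size alone *AlaRS* was at 0.0015, *MetRS* at 0.010032 and *GluProRS* at 0.021; under DESeq2 *MetRS* was at 0.0073 and *GluProRS* at 0.019; under RLE scaling *GluProRS* was at 0.012. Upper-quartile scaling gave *TrpRS* -0.093 and *ArgRS-m* -0.13, and removing the length trend *ArgRS-m* -0.0056. With 1 library left out *AlaRS* ranged from -0.296 to 0.21, *AspRS* from -0.46 to 0.11, *GlnRS* from -0.32 to 0.025, *GluProRS* from -0.12 to 0.11, *IleRS* from -0.12 to 0.058, *MetRS* from -0.39 to 0.295, *TrpRS* from -0.086 to 0.36, *ArgRS-m* from -0.092 to 0.30 and *TrpRS-m* from -0.50 to 0.075.

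The replicate block called 1813 genes and 0 synthetase genes; in it *trbl* lost its call and *PEK* gained one. Samples with the same number did not deviate together (correlation -0.08), so the labels' numbers are not taken to pair them.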
